A study of Mus musculus with 12 samples.

Results

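The levels of 7 genes were examined across 12 libraries, namely Scn4a and Scn4b, which encode sodium channel subunits, Gja1, Gja5 and Gjc1, which encode gap junction connexins, and Hcn2 and Hcn4, which encode pacemaker channel subunits. The 7 genes were picked out by symbol, and all 7 were among the 16673 genes present in both count tables. RNA came from left ventricles of male mice with floxed Ddx5, a gene for an RNA helicase, in 4 groups of 3 libraries. In the constitutive knockout (mCKO, DDX5fl/fl with MYH6Cre) the recombinase was driven in cardiomyocytes by the Myh6 promoter, and tissue was taken at 8 weeks without treatment, beside age-matched DDX5fl/fl mice without Cre (CTR1). In the inducible knockout (iCKO, Ddx5flox/flox with Myh6MerCreMer) the recombinase needs tamoxifen to enter the nucleus. These mice received tamoxifen at 20 mg/kg/day intraperitoneally for 5 days, as did their floxed controls without Cre (CTR2), and tissue was taken after 7 days, a time whose starting injection the design text does not give. All 12 libraries carried floxed alleles and neither control carried Cre, so effects of Cre itself and of Ddx5 loss cannot be told apart. The models also differ in Cre form and tamoxifen, and the age of the iCKO and CTR2 mice is not given in the sources used here.

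Voltage-gated sodium channels carry the fast inward current of the action potential upstroke, and their beta subunits set gating and surface delivery of the pore. Connexins assemble into gap junction channels through which that current passes from cell to cell. The connexin of the working ventricle is connexin 43 (Gja1), whereas connexin 40 (Gja5) is found in the atria, the ventricular conduction system and arterial endothelium, and connexin 45 (Gjc1) in conduction tissue and the embryonic heart. Hyperpolarization-activated channels pass the pacemaker current, and HCN4 is the main form of the sinus node while HCN2 is found in the working ventricle.

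Libraries held 19682268 to 25871882 gene counts, and a count of 0 would allow up to 3 counts, or 0.106 to 0.157 CPM, the usual sequencing unit for the share of a gene in its library, here with TMM-scaled library totals. The lowest count of any of the 7 genes in any library was 98, so none was near that limit, which covers counting error only. Ddx5 itself was at 233, 232 and 218 CPM in mCKO and 636, 636 and 397 CPM in CTR1, and at 216, 219 and 192 CPM in iCKO and 566, 697 and 597 CPM in CTR2. Every knockout library thus lay below its controls. Replicate 3 of mCKO and replicate 3 of CTR1 stood apart from the other libraries of their groups and deviated together (r = 0.823). Replicates 1 and 2 of that experiment could not be matched by number from such deviations. Each mCKO test of the 7 genes is therefore given without and with the replicate number as a block. Replicate 3 of iCKO and replicate 2 of CTR2 stood apart too, with a chi-square per degree of freedom of 146 and 112 between iCKO replicate 3 and the others, against 23.4 between those, and of 50.6 and 38.2 for CTR2 replicate 2, against 11.4. The summed level of 8 ventricular cardiomyocyte markers was 60400 to 92900 CPM in mCKO, 70800 to 105000 in CTR1, 48800 to 58400 in iCKO and 87900 to 100000 in CTR2. Over 8 macrophage markers the sums were 436 to 651 CPM in mCKO, 319 to 401 in CTR1, 559 to 1010 in iCKO and 212 to 270 in CTR2, and over 8 fibroblast markers 949 to 1700, 878 to 1440, 2650 to 4220 and 857 to 932 CPM in the same groups. Most of the fibroblast sum in iCKO was Postn, Col1a1 and Col1a2, at 952, 948 and 767 CPM on average, against 17.5, 67.3 and 80.6 in CTR2. Of the 8, 5 were higher in iCKO and 1, Dcn, was lower (-0.63, adjusted p = 0.0065, edgeR). Over all genes tested in iCKO, 25.2% were higher and 19.5% lower by the same test. The sums of 8 smooth muscle and pericyte markers were 1570 to 1880, 1810 to 1940, 1020 to 1210 and 1620 to 1690 CPM, and those of 8 glia and nerve markers did not exceed 22.3 CPM. The 8 smooth muscle and pericyte markers did not move together in iCKO. Of them 3 were higher and 3 lower (edgeR, adjusted p below 0.05, median log2 fold change 0.04), against 25.2% and 19.5% of all genes. Rgs5 averaged 250 CPM in iCKO and 629 in CTR2, and Abcc9 165 and 679, while Acta2 averaged 439 and 116. Whether libraries of 1 group came from different animals is not stated, and p-values then cover only the spread between libraries, which may be technical.

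The promoters of the 3 genes that differed between the models are shown because Scn4a and Scn4b were lower together in iCKO while Hcn2 was on opposite sides of its control in the 2 models. Each line is the 250 bases before the RefSeq start of the gene, 5′ to 3′ on the strand of the gene in GRCm38.p6, with CpG dinucleotides in capitals; the RefSeq starts of Scn4a and Scn4b lie inside the GENCODE spans given for these genes, and so do all of the Scn4a window and most of the Scn4b window.
Scn4a, chr11:106349391-106349640, minus strand: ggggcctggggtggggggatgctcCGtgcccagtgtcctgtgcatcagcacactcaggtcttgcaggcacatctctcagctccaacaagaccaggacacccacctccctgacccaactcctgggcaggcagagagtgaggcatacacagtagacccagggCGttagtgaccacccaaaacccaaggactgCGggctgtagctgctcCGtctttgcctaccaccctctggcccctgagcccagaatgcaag
Scn4b, chr9:45138374-45138623, plus strand: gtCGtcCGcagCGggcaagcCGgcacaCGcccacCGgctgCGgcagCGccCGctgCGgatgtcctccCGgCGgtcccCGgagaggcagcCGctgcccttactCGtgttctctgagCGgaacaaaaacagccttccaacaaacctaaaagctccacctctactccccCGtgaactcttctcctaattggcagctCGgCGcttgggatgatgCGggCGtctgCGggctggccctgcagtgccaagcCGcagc
Hcn2, chr10:79716384-79716633, plus strand: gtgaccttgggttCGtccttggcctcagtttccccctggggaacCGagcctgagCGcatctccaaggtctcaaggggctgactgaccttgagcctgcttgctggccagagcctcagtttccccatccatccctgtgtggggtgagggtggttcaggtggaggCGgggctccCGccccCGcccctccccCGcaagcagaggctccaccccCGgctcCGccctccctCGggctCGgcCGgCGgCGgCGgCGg
The Scn4a window held 4 CpGs and was 61.6% G+C, the Scn4b window 23 CpGs and 66.0%, and the Hcn2 window 16 CpGs and 70.4%. Across 32851 mouse promoters of the same length, with those of a single chromosome left out, the median was 6 CpGs and 52.4% G+C. Of these promoters, 37.8%, 86.7% and 74.6% held fewer CpGs than those of Scn4a, Scn4b and Hcn2. Windows of 300 bases (250 before and 50 after the start) were found for 6 of the 7 genes, Gjc1 being the other, and were searched on both strands for 4 motifs: the E-box CAGCTG, the GATA site AGATAA, the T-box site AGGTGT and the NKX2-5 site TNAAGTG. None of the 4 was present in the windows of Scn4a, Scn4b, Gja5 or Hcn2. Gja1 held a GATA match 135 bases before its start (chr10:56377153-56377182, match in capitals) and Hcn4 a T-box match 233 bases before its start (chr9:58822704-58822733).
Gja1: gaaactacaactTTATCTtgaccaggttgc
Hcn4: acaggagtaaggACACCTcctacctcagtc
The same letters were found in 11.2% (GATA) and 13.7% (T-box) of the 32851 promoters, and the E-box and NKX2-5 letters in 16.3% and 11.5%, so a match only describes the sequence.

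In mCKO, none of the 7 genes passed the test without the replicate block (edgeR quasi-likelihood, Benjamini-Hochberg adjusted p below 0.05), nor did any other of 13353 genes (0.0% called). At an unadjusted p below 0.05 there were 2 of the 7 genes and 1164 of all genes, DESeq2 called 1 of the 7 (Hcn2) with 176 genes higher and 134 lower in all, and limma-voom called 0. With the block 2 of the 7 were called, Hcn2 higher and Scn4a lower, against 13.8% of all genes, of which 7.32% were higher and 6.45% lower. In iCKO 3 of the 7 were called, Scn4a, Scn4b and Hcn2, all lower, against 44.8% of 13548 genes, of which 19.5% were lower and 25.2% higher (3420 higher and 2648 lower, or 4592 and 1832 with library totals in place of TMM scaling). The median log2 fold change of the 7 genes was -0.05 in mCKO and -0.60 in iCKO, beside medians over all genes of 0.0071 and 0.028.

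**Figure D1:**
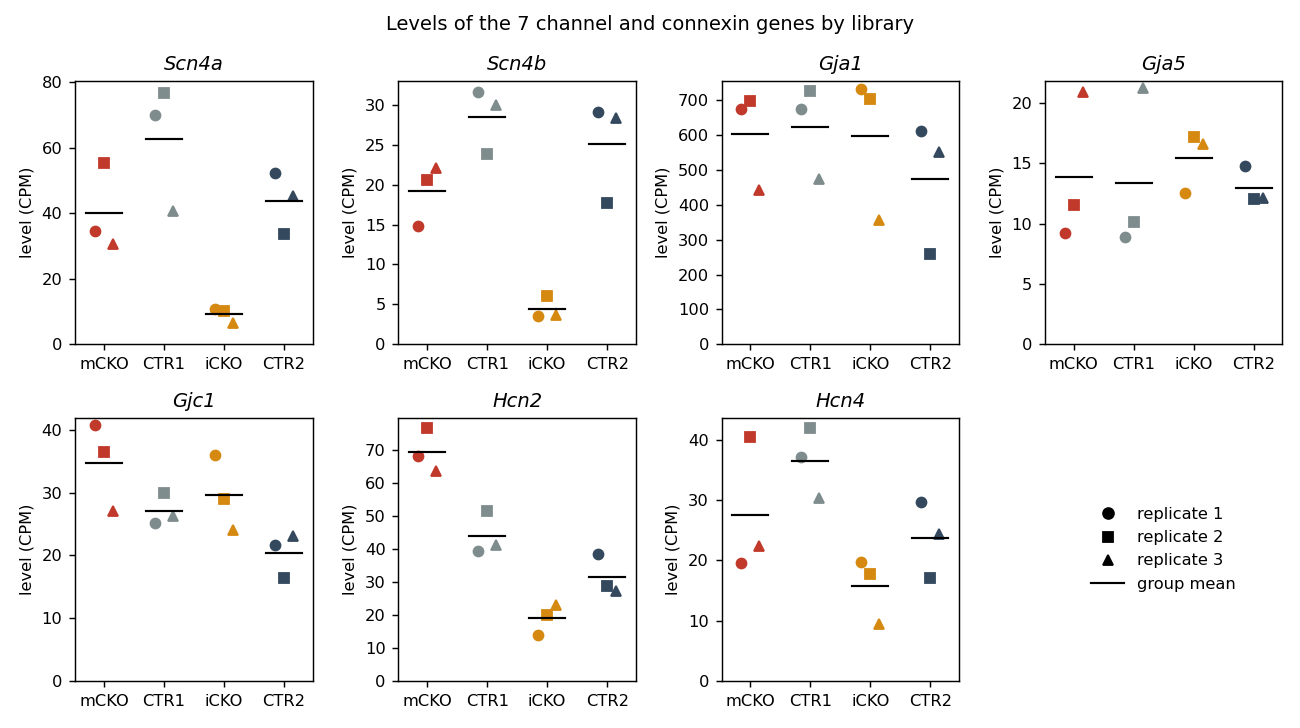
Level in CPM (vertical axis) of each of the 7 genes in every library of the 4 groups, with the replicate number as the marker shape and the group mean as a bar. Scn4a and Scn4b lie far below CTR2 in all 3 iCKO libraries, Hcn2 lies above CTR1 in mCKO and below CTR2 in iCKO, and Gja1 and Gja5 overlap their controls in both models.

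Scn4a encodes the pore-forming subunit Nav1.4, known mainly from skeletal muscle. The gene (Entrez 110880, protein coding) spans 106318592 to 106353288 on the minus strand of chromosome 11 in GRCm38 (GENCODE M21), with 26 exons after merging. Its level was 10.9, 10.1 and 6.45 CPM in iCKO and 52.4, 33.8 and 45.2 CPM in CTR2. All 3 iCKO libraries were below the lowest control, as was so for 27.0% of all genes tested in iCKO. Means were 9.16 ± 2.38 CPM in iCKO and 43.8 ± 9.37 CPM in CTR2 (SD, n = 3 each), 4.78-fold lower (log2 fold change -2.26 ± 0.25 SE, adjusted p = 0.0003 over all genes, edgeR). In mCKO the levels were 34.6, 55.4 and 30.5 CPM, and in CTR1 70.1, 76.9 and 40.8 CPM. The groups overlapped, because mCKO replicate 2 was above CTR1 replicate 3, but within each replicate number mCKO was the lower. The mCKO mean was 40.2 ± 13.4 CPM and the CTR1 mean 62.6 ± 19.2 CPM (SD, n = 3 each). The log2 fold change was -0.64 ± 0.31 without the block (adjusted p = 0.66, edgeR) and -0.64 ± 0.12 with it (adjusted p = 0.015, edgeR). Without replicate 3 of both groups and with no block it was -0.71 ± 0.25 (adjusted p = 0.20, edgeR).

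Scn4b encodes the beta-4 subunit, a single-pass membrane protein that associates with cardiac and neuronal sodium channels. The gene (Entrez 399548, protein coding) spans 45138395 to 45154152 on the plus strand of chromosome 9, with 5 merged exons. It was at 3.58, 6.10 and 3.69 CPM in iCKO and at 29.1, 17.7 and 28.4 CPM in CTR2. Again no iCKO library reached the lowest control, as for 27.0% of all genes tested in iCKO. The means, 4.45 ± 1.42 CPM in iCKO and 25.1 ± 6.40 CPM in CTR2 (SD, n = 3 each), were 5.62-fold apart (log2 fold change -2.49 ± 0.29, adjusted p = 0.00034, edgeR). In the constitutive model Scn4b was at 14.8, 20.6 and 22.1 CPM in mCKO and 31.6, 23.9 and 30.0 CPM in CTR1. These groups did not overlap either, and mCKO lay wholly below CTR1 for 7.3% of all genes tested. The mCKO change missed the threshold both without the block (-0.57 ± 0.19, adjusted p = 0.44, edgeR) and with it (-0.58 ± 0.16, adjusted p = 0.066). With the block DESeq2 gave -0.59 ± 0.17 (adjusted p = 0.0095).

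The iCKO changes of Scn4a and Scn4b were each called under all 19 alternative settings, between -2.53 and -2.04 for Scn4a and between -2.98 and -2.24 for Scn4b. Within a library, the count of Scn4a was 3.05, 1.66 and 1.75 times that of Scn4b in iCKO and 1.80, 1.91 and 1.59 times in CTR2. The mean log2 ratio was 1.05 ± 0.49 in iCKO and 0.82 ± 0.13 in CTR2 (SD, n = 3 each), a difference of 0.23 (two-sided exact permutation p = 0.7, 1.0 after Benjamini-Hochberg adjustment over 6 ratio tests, where 0.1 is the smallest that 3 against 3 allows). In mCKO the ratio was 2.34, 2.69 and 1.38, and in CTR1 2.22, 3.22 and 1.36, with a difference in mean log2 ratio of -0.05 (exact permutation p = 1.0). In neither model did the ratio of both genes separate knockout from control libraries. Summed levels of 10 skeletal muscle markers were 330 to 375 CPM in iCKO and 17.0 to 23.5 in CTR2, and, for the 8 of them listed in the mCKO data, 44.4 to 54.0 in mCKO and 19.8 to 26.9 in CTR1, with Myh1, Myh2 and Myh4 at 0 in at least 1 library of iCKO. The fast skeletal troponin gene Tnnt3 and the myosin-binding protein gene Mybpc2 were higher in iCKO (log2 fold changes 5.88 and 4.19, adjusted p = 2e-05 and 1.8e-05, edgeR) while Scn4a was lower. Of 8 ventricular cardiomyocyte markers 6 were lower in iCKO (median log2 fold change -0.97 over the 8), against 19.5% of all genes. In these whole-tissue samples fewer cells of a type and less RNA per cell cannot be told apart. Their part in the fall of Scn4a and Scn4b was not tested.

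**Figure D2:**
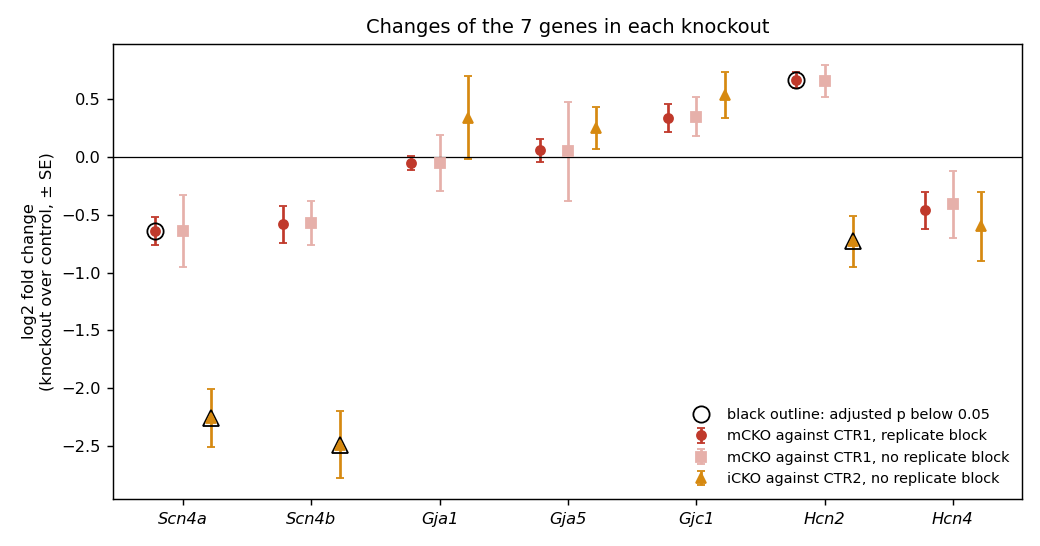
Log2 fold change of knockout over control with its standard error for the 7 genes, for mCKO against CTR1 with and without the replicate block and for iCKO against CTR2; a black outline marks an adjusted p below 0.05. Scn4a and Scn4b reach -2.26 and -2.49 in iCKO, and Hcn2 is at 0.67 in mCKO (block) and -0.73 in iCKO.

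Gja1 was the most abundant of the 7 genes in every group. The gene (Entrez 14609, protein coding) spans 56377330 to 56402513 on the plus strand of chromosome 10, with 5 merged exons. Its level was 732, 705 and 356 CPM in iCKO and 611, 259 and 552 CPM in CTR2. In each group 1 library was low, iCKO replicate 3 and CTR2 replicate 2, and the groups overlapped. The means of 598 ± 210 CPM in iCKO and 474 ± 188 CPM in CTR2 (SD, n = 3 each) gave a log2 fold change of 0.34 ± 0.36 (adjusted p = 0.48, edgeR). In mCKO Gja1 was at 674, 697 and 442 CPM, and in CTR1 at 675, 726 and 473 CPM, so replicate 3 was lowest in both groups. The change in mCKO was -0.05 ± 0.24 without the block (adjusted p = 0.99, edgeR) and -0.05 ± 0.06 with it (adjusted p = 0.63).

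Gja5 (Entrez 14613, protein coding) spans 96904693 to 97077416 on the plus strand of chromosome 3, with 6 merged exons, of which 165 bases (2.87%) overlap exons of Gpr89 on the other strand. It was at 12.5, 17.2 and 16.6 CPM in iCKO and 14.8, 12 and 12.1 CPM in CTR2, and the groups overlapped. The log2 fold change was 0.25 ± 0.18 (adjusted p = 0.29, edgeR). In the constitutive model it was at 9.20, 11.5 and 20.9 CPM in mCKO and 8.85, 10.1 and 21.2 CPM in CTR1. Replicate 3 held about the same high level in both groups, and the change was 0.05 ± 0.43 without the block (adjusted p = 1.0, edgeR) and 0.06 ± 0.10 with it (adjusted p = 0.74). The same libraries were high in 8 endothelial markers, whose summed level was 2110 CPM in mCKO replicate 3 and 2130 in CTR1 replicate 3, and 1220 to 1360 CPM in the other libraries of these groups. In iCKO 8 arterial endothelial markers summed to 156 to 177 CPM, against 200 to 270 CPM in CTR2, while the mean of Gja5 was 15.4 CPM in iCKO and 13.0 CPM in CTR2. Over 8 atrial markers, of which Sln and Bmp10 were at 0 in at least 1 library of each group, the sum was 699 to 1670 CPM in mCKO and 169 to 366 in CTR1, and 4040 to 8160 CPM in iCKO and 142 to 364 in CTR2. Most of that sum was Nppa, the gene for atrial natriuretic peptide, which averaged 1250 CPM in mCKO and 238 in CTR1, and 5410 CPM in iCKO and 235 in CTR2. Of the 4 other atrial markers tested in iCKO, Myl4 was higher (2.94, adjusted p = 0.00018, edgeR), Stard10 lower (-0.82, adjusted p = 0.031), and Myl7 and Dkk3 were not called (-0.28 and 0.58). The part of endothelium or of atrial genes in the level of Gja5 was not tested.

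Gjc1 (Entrez 14615, protein coding, chromosome 11, 102799579 to 102819700, minus strand, 4 merged exons) was at 36.0, 29.0 and 24.0 CPM in iCKO and 21.7, 16.4 and 23.0 CPM in CTR2. Every iCKO library was above every control, as was so for 31.9% of all genes tested in iCKO. The means were 29.6 ± 6.05 CPM in iCKO and 20.4 ± 3.51 CPM in CTR2 (SD, n = 3 each), and the log2 fold change of 0.54 ± 0.20 missed the threshold (adjusted p = 0.058, edgeR). Without iCKO replicate 3 it was 0.63 ± 0.18 and was called (adjusted p = 0.020, edgeR), and with library totals in place of TMM scaling it was 0.75 ± 0.21 (adjusted p = 0.019). In mCKO the levels were 40.7, 36.4 and 27.1 CPM, and in CTR1 25.1, 30.0 and 26.3 CPM. The groups overlapped through mCKO replicate 3, and the change was 0.35 ± 0.17 without the block (adjusted p = 0.65, edgeR) and 0.34 ± 0.12 with it (adjusted p = 0.088). Without replicate 3 of both groups and with no block it was 0.48 ± 0.11 (adjusted p = 0.028, edgeR).

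The count of Gja5 per count of Gja1 was 0.0171, 0.0244 and 0.0466 in iCKO and 0.0243, 0.0464 and 0.0219 in CTR2, and 0.0136, 0.0165 and 0.0472 in mCKO and 0.0131, 0.0140 and 0.0449 in CTR1. The mean log2 ratio differed by -0.11 in iCKO (two-sided exact permutation p = 1.0) and by 0.12 in mCKO (p = 0.6, the same exact permutation test). High ratios stood in single libraries of every group rather than with a genotype.

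Hcn2 was higher in mCKO, with the block, and lower in iCKO. The gene (Entrez 15166, protein coding) spans 79716634 to 79736108 on the plus strand of chromosome 10, with 8 merged exons. In mCKO it was at 67.9, 76.5 and 63.6 CPM, and in CTR1 at 39.2, 51.3 and 41.1 CPM. All 3 mCKO libraries were above the highest control, as was so for 7.69% of all genes tested. The means of 69.4 ± 6.60 CPM in mCKO and 43.9 ± 6.53 CPM in CTR1 (SD, n = 3 each) gave a log2 fold change of 0.66 ± 0.14 without the block (adjusted p = 0.24, edgeR) and 0.67 ± 0.07 with it (adjusted p = 0.00025, 1.59-fold higher). Without replicate 3 of both groups and with no block it was 0.68 ± 0.13 (adjusted p = 0.028, edgeR). In iCKO the levels were 14.0, 19.9 and 23.0 CPM, and in CTR2 38.5, 28.6 and 27.3 CPM. All 3 iCKO libraries were below the lowest control, as was so for 27.0% of all genes tested in iCKO. The means of 19.0 ± 4.54 CPM in iCKO and 31.5 ± 6.14 CPM in CTR2 (SD, n = 3 each) were 1.66-fold apart (log2 fold change -0.73 ± 0.22, adjusted p = 0.027, edgeR). That call was lost without iCKO replicate 1 (-0.55, adjusted p = 0.067, edgeR), without iCKO replicate 2 (-0.76, adjusted p = 0.065), without CTR2 replicate 1 (-0.57, adjusted p = 0.10) and with library totals in place of TMM scaling (-0.52, adjusted p = 0.081). It was also lost with the block and library totals (-0.53, adjusted p = 0.14, edgeR) and with the block without replicate 1 (-0.39, adjusted p = 0.38) or replicate 2 (-0.85, adjusted p = 0.055), 7 of 19 alternatives in all, while the direction was kept under all 19. Without the libraries that stood apart, iCKO replicate 3 or CTR2 replicate 2, it was -0.93 (adjusted p = 0.010, edgeR) and -0.80 (adjusted p = 0.044).

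Hcn4 (Entrez 330953, protein coding, chromosome 9, 58823412 to 58863175, plus strand, 8 merged exons) was at 19.7, 17.8 and 9.50 CPM in iCKO and 29.7, 17.1 and 24.3 CPM in CTR2. The groups overlapped because CTR2 replicate 2 was low. The means were 15.7 ± 5.42 CPM in iCKO and 23.7 ± 6.33 CPM in CTR2 (SD, n = 3 each), with a log2 fold change of -0.60 ± 0.30 (adjusted p = 0.14, edgeR). In mCKO Hcn4 was at 19.5, 40.4 and 22.4 CPM, and in CTR1 at 37.1, 42.0 and 30.4 CPM. Replicate 2 of mCKO was as high as the controls, and the change was -0.41 ± 0.29 without the block (adjusted p = 0.83, edgeR) and -0.46 ± 0.16 with it (adjusted p = 0.13). The value was negative in both models under all alternatives and missed the threshold in the fits above. In mCKO it was called with DESeq2 and the block (-0.48, adjusted p = 0.032) and with the block without replicate 2 (-0.68, adjusted p = 0.0073, edgeR), and it lay between -0.80 (without mCKO replicate 2) and -0.22 (without mCKO replicate 1) when single libraries were left out. In iCKO it was called with the block without replicate 2 (-0.97, adjusted p = 0.022, edgeR).

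The ratio of the pacemaker genes was set beside their levels. The count of Hcn4 per count of Hcn2 was 0.288, 0.528 and 0.352 in mCKO and 0.946, 0.818 and 0.740 in CTR1. No mCKO library reached the lowest control ratio. The mean log2 ratio was -1.41 ± 0.45 in mCKO and -0.27 ± 0.18 in CTR1 (SD, n = 3 each), a difference of -1.14 or 2.20-fold (two-sided exact permutation p = 0.1, the smallest that 3 against 3 allows). In iCKO the ratio was 1.40, 0.896 and 0.414, and in CTR2 0.771, 0.598 and 0.892. These groups overlapped, with a difference in mean log2 ratio of 0.11 (exact permutation p = 0.8). Over the 6 ratio comparisons, 3 pairs of genes in 2 models, the Benjamini-Hochberg adjusted exact permutation p was 0.6 for Hcn4 to Hcn2 in mCKO and 1.0 for each of the others.

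**Figure D3:**
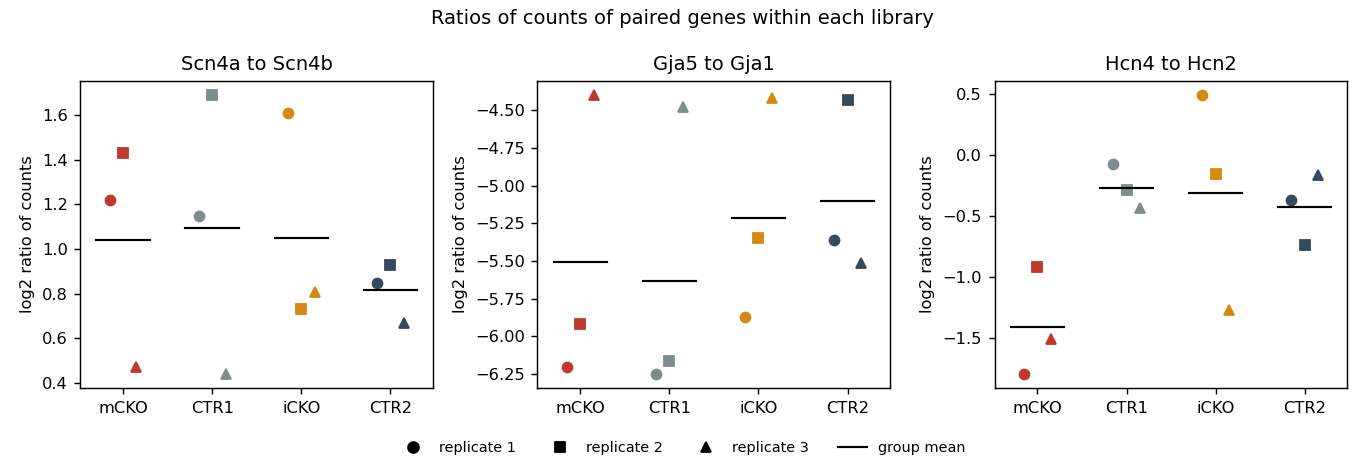
Log2 ratio of counts within each library for the pairs Scn4a to Scn4b, Gja5 to Gja1 and Hcn4 to Hcn2 (vertical axes do not start at 0), with marker shapes for replicate numbers and bars for group means. The Hcn4 to Hcn2 ratio lies between -1.80 and -0.92 in mCKO and between -0.44 and -0.08 in CTR1, and the other groups overlap.

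Levels of different genes were compared only per kilobase of merged exon. Gja1 led in every group, at 58.9 CPM per kb in mCKO, 60.9 in CTR1, 58.2 in iCKO and 46.2 in CTR2, and its range was apart from that of the next gene, Hcn2, in each. Hcn2 followed at 21.7 in mCKO, 13.8 in CTR1, 5.94 in iCKO and 9.86 in CTR2. Its range was apart from the next gene in mCKO, CTR1 and CTR2, but overlapped that of Gjc1 (5.93 CPM per kb) in iCKO. In CTR1 and CTR2 Scn4a came next, at 8.88 and 6.22 CPM per kb, and Gja5 was lowest, at 2.33 and 2.26. In iCKO the lowest places were taken by Scn4a at 1.30 and Scn4b at 0.893 CPM per kb, whose ranges overlapped, and Gja5 stood above them at 2.69. In mCKO the order below Hcn2 was Gjc1, Scn4a, Hcn4, Scn4b and Gja5, and each of these neighbours overlapped in range.

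The changes in mCKO and iCKO were compared in 1 fit of all 12 libraries, as the mCKO change minus the iCKO change, where 20.8% of 13871 genes were called, 11.0% with a positive and 9.88% with a negative difference. These were 1521 positive and 1371 negative calls, or 1103 and 2145 with library totals. Of the 7 genes 3 were called, all positive. Scn4b had a difference of 1.95 ± 0.35 (adjusted p = 0.003, edgeR), Scn4a of 1.66 ± 0.41 (adjusted p = 0.015) and Hcn2 of 1.42 ± 0.29 (adjusted p = 0.0053). For Scn4a and Scn4b both changes were negative and the iCKO one was the larger, while for Hcn2 the signs were opposite. With the replicate block the differences of Scn4b, Scn4a and Hcn2 were 1.95 ± 0.40, 1.67 ± 0.28 and 1.44 ± 0.30 (adjusted p = 0.0081, 0.0031 and 0.008, edgeR), where 28.1% of all genes were called, 14.8% positive and 13.3% negative. This block covered the numbers of both experiments, although same-numbered iCKO and CTR2 libraries did not deviate together. With the block and without replicate 3 that of Scn4b was 1.63 ± 0.57 (adjusted p = 0.10), and without replicate 2 that of Hcn2 was 1.59 ± 0.41 (adjusted p = 0.054). The differences of Gja1 (-0.34 ± 0.47), Gja5 (-0.17 ± 0.49), Gjc1 (-0.15 ± 0.27) and Hcn4 (0.23 ± 0.44) had adjusted p-values of 0.65 to 0.83. The models differ in Cre form and tamoxifen, and may differ in age, and these cannot be told apart here.

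Of 6 further sodium channel subunit genes tested in iCKO, 2 were higher and 1 lower (median log2 fold change 0.80), against 25.2% higher and 19.5% lower of all genes, and the median of 7 tested in mCKO was 0.38 without the block and 0.39 with it. Scn3b, the beta-3 subunit gene, averaged 2.66 CPM in iCKO and 0.906 CPM in CTR2 (1.55 ± 0.33, adjusted p = 0.0055, edgeR). Scn4b and Scn3b, both beta subunit genes, thus changed in opposite directions in iCKO.

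Of 11 genes for sodium channel partners and regulators tested in iCKO, 7 were lower and 2 higher (median -0.54), where 19.5% of all genes were lower and 25.2% higher, and with the block 2 of 12 were lower in mCKO (median -0.14), where 6.45% of all genes were lower. Gpd1l, a glycerol-3-phosphate dehydrogenase-like protein that affects cardiac sodium current, was at 62.5, 56.5 and 51.7 CPM in iCKO and 147, 144 and 150 CPM in CTR2. All iCKO libraries were under the controls, as for 27.0% of all genes tested in iCKO. The log2 fold change of Gpd1l was -1.37 ± 0.14 (adjusted p = 0.00019, edgeR), and its mCKO change minus the iCKO change was 1.21 ± 0.16 (adjusted p = 0.00045). Fgf13, an intracellular fibroblast growth factor homologous factor that binds sodium channels, averaged 44.3 CPM in iCKO and 85.9 CPM in CTR2 (-0.95 ± 0.16, adjusted p = 0.0021, edgeR). Cav3, the muscle caveolin, was higher in iCKO (165 against 71.4 CPM on average, 1.21 ± 0.30, adjusted p = 0.011, edgeR, but 0.70 and adjusted p = 0.001 without iCKO replicate 3) and lower in mCKO with the block (94.4 against 113 CPM, -0.26 ± 0.07, adjusted p = 0.023, and -0.26 ± 0.12 without the block, adjusted p = 0.59). Without replicate 3 the blocked mCKO value of Cav3 was -0.22 ± 0.08 (adjusted p = 0.18).

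Among the other connexins and pannexins, 5 of 7 tested were higher in iCKO and none lower (median 2.19), against 25.2% higher of all genes, while none of 7 was called in mCKO with or without the block (median 0.38 without it). Of these, Gjb5 and Gjd3 averaged under 2 CPM in iCKO, and Panx2 averaged 5.91 CPM in iCKO and 1.29 CPM in CTR2 (2.19 ± 0.29, adjusted p = 0.00065, edgeR). Panx1, which forms large single-membrane channels, was at 5.59, 8.63 and 8.39 CPM in iCKO and 0.759, 0.753 and 0.816 CPM in CTR2 (3.27 ± 0.28, adjusted p = 0.0001, edgeR). Of 12 connexin partner and trafficking genes, 3 were higher and 4 lower in iCKO (median -0.26), beside 25.2% higher and 19.5% lower of all genes. Tmem65, a protein of the intercalated disc known in mouse to bind connexin 43, was at 99.4, 79.9 and 65.6 CPM in iCKO and 238, 206 and 230 CPM in CTR2 (-1.46 ± 0.18, adjusted p = 0.0005, edgeR). It was lower in mCKO too with the block (-0.29 ± 0.06, adjusted p = 0.012, and -0.29 ± 0.14 without it, adjusted p = 0.67), but was not called with the block without replicate 2 (-0.28, adjusted p = 0.081) or without replicate 3 (-0.30, adjusted p = 0.077), and the change was larger in iCKO by 1.21 ± 0.22 (adjusted p = 0.0034).

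Among 8 other pacemaker channel subunits and partners, 3 were higher in mCKO with the block and none lower (median 0.02), and in iCKO 3 were higher and 1 lower (median 0.51). Of all genes, 7.32% were higher in mCKO with the block, and 25.2% were higher and 19.5% lower in iCKO, so the 4 of 8 called in iCKO are near the 44.8% of all genes. Cacna1h, the T-type calcium channel subunit Cav3.2, was at 129, 121 and 76.4 CPM in mCKO and 29.1, 30.5 and 30.4 CPM in CTR1 (1.82 ± 0.18 with the block, adjusted p = 0.0069, edgeR, and 1.86 ± 0.21 without it, adjusted p = 0.094). In iCKO it was at 19.5, 21.0 and 11.0 CPM, against 29.7, 26.9 and 28.6 CPM in CTR2 (-0.72 ± 0.24, adjusted p = 0.036, edgeR), a call lost without any 1 of the CTR2 libraries (-0.76 to -0.70, adjusted p = 0.067 to 0.096), with library totals (-0.50, adjusted p = 0.14), with the block and library totals (-0.56, adjusted p = 0.11) and with the block without replicate 3 (-0.53, adjusted p = 0.056). Like Hcn2, Cacna1h was higher in mCKO and lower in iCKO, and its difference between the models was 2.63 ± 0.32 (adjusted p = 0.0003, edgeR).

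**Figure D4:**
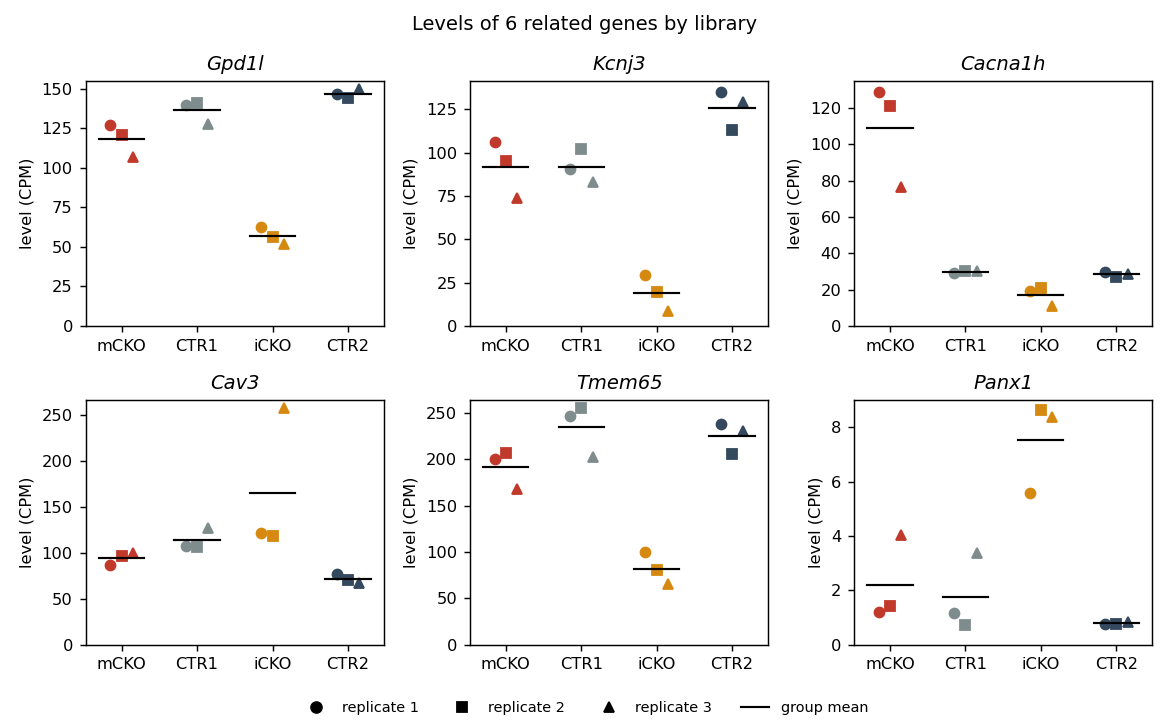
Level in CPM of 6 related genes in every library, with marker shapes for replicate numbers and bars for group means. Cacna1h is above CTR1 in mCKO and below CTR2 in iCKO, and Gpd1l, Kcnj3 and Tmem65 lie below CTR2 in all 3 iCKO libraries, where Cav3 and Panx1 lie above it.

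Of 17 transcription factor genes of the conduction system and pacemaker, 3 were higher and 5 lower in iCKO (median 0.19), and 2 were lower in mCKO with the block (median -0.04). These counts are near the shares of all genes called, 44.8% in iCKO and 13.8% in mCKO with the block. Irx4, a homeobox factor of the working ventricle, averaged 27.8 CPM in iCKO and 52.4 CPM in CTR2 (-0.91 ± 0.15, adjusted p = 0.0018, edgeR). Etv1, an ETS factor required for fast conduction in mouse, averaged 7.74 CPM in iCKO and 16.7 CPM in CTR2 (-1.11 ± 0.24, adjusted p = 0.0059, edgeR), and Gata4, a zinc-finger factor of cardiomyocytes, 270.0 and 168 CPM (0.69 ± 0.14, adjusted p = 0.0042, edgeR). Of 12 conduction system markers, 3 were lower in iCKO (median -0.18) and 1 was higher in mCKO with the block (median 0.14), where 19.5% of all genes were lower in iCKO and 7.32% higher in mCKO with the block. Kcnj3, a subunit of the acetylcholine-activated potassium channel, was at 29.2, 19.7 and 8.57 CPM in iCKO and 135, 113 and 129 CPM in CTR2 (-2.72 ± 0.38, adjusted p = 0.00087, edgeR), although 31.1% of its exon bases overlap a noncoding gene on the other strand. Its change was -0.01 ± 0.08 in mCKO with the block (adjusted p = 0.94, and 1.0 without it), and the difference between the models was 2.76 ± 0.44 (adjusted p = 0.0015, edgeR).

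**Figure D5:**
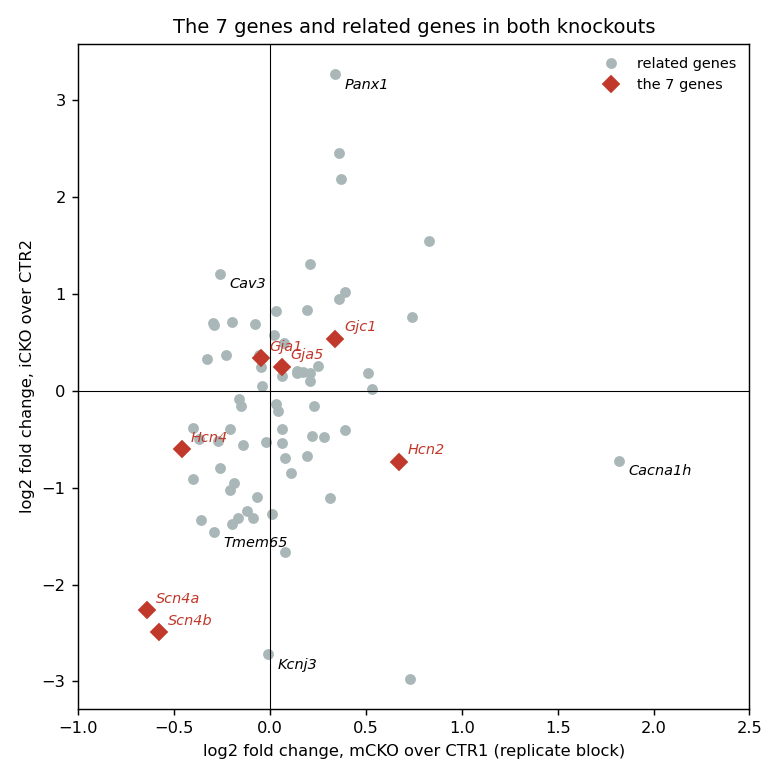
Log2 fold change in mCKO over CTR1 with the replicate block (horizontal axis) against that in iCKO over CTR2 (vertical axis). Diamonds are the 7 genes, and dots are related genes that were tested in both models, some of which are not shown. Scn4a and Scn4b lie low on the left, and Hcn2 and Cacna1h lie right of 0 and below 0.

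Across the 12 libraries, each experiment centred on its own mean, the log2 CPM of Scn4a followed that of Scn4b with r = 0.912 and that of Hcn4 with r = 0.805. Only the mean of each experiment was taken out, so these values keep the difference between knockout and control groups. They also reflect library composition, which differed between groups. Among 11737 genes the closest to Scn4a were Lrrc39, Zfp14 and Ank (r = 0.984, 0.983 and 0.982), and the closest to Scn4b were Pon3, Plekhb2 and Fam120b (0.983, 0.978 and 0.975). Gja1 was nearest to Plce1, Gnaq and Prkca (0.980, 0.964 and 0.960), and Gja5 to Myl9, Inka1 and Scara3 (0.955, 0.953 and 0.941). Gjc1 was nearest to the interferon-induced genes Usp18 and Ifit3 and to Trim30d (0.967, 0.950 and 0.934), whose log2 fold changes were 0.92, 1.06 and 0.86 in mCKO with the block and 1.22, 1.27 and 1.10 in iCKO. Among the genes nearest to Hcn2 were Lilra5 and Pabpc4 (0.938 and 0.874). Hcn4 was nearest to Spry2, Rgs6 and Zfp11 (0.926, 0.925 and 0.910).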

How the data were processed

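Gene counts of 12 left ventricle libraries from male mice were analysed, grouped by title and genotype label. Per the labels' protocols, Trizol-extracted RNA went into a stranded polyadenylated-RNA kit. The submitters' processing notes name HISAT2 (an aligner), DESeq and the build GRCm38, and for their versions, the annotation, the counting tool and its use of strand the answer is not given in the sources used here. Raw whole-number counts were deposited by the authors in a table for each model, with 17260 and 17325 genes. From these, CPM and log2 values were calculated. Replicates of a group all differed by more than sampling noise (chi-square test of counts).

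After filterByExpr (at least 10 counts, total 15), edgeR 4.0.16 quasi-likelihood tests with TMM scaling and robust dispersions (R 4.3.3) were run on 13353 genes for mCKO, 13548 for iCKO and 13871 for the difference. All p-values are two-sided, Benjamini-Hochberg adjusted over all genes and called below 0.05. A value after ± is a standard error unless SD is named. For edgeR it was derived from the log2 fold change and the F statistic of its test. The models were fitted separately, and their difference was an interaction contrast over 12 libraries. In the mCKO experiment libraries with equal numbers shared their deviations from the group means (r = 0.464 for number 1, 0.532 for number 2, 0.823 for number 3, against a limit of 0.1). Fits with the number as a block therefore stand beside those without. Numbers 1 and 2 matched as well across numbers (r = 0.5527 for mCKO 1 with CTR1 2, 0.529 for mCKO 2 with CTR1 1). Only number 3 was set apart (r = -0.68 to -0.6228 with other numbers), so matching 1 with 1 and 2 with 2 has no backing in these values. The pairing rests on the data alone. Ratios of counts were compared by exact permutation tests. DESeq2 1.42.0, limma-voom (limma 3.58.1), other scalings, no filter and left-out replicates served as alternatives, and the code was tested on simulated data. A gene's level per kilobase used merged exons.

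The members, lists, tests and naming rule (up to 4 called genes in each list by adjusted p) were chosen with earlier results of these data known. Which of the genes so named are described was decided with their values in view, and some are not reported here. The block combined with library totals, with DESeq2 or with limma-voom, and the difference without replicate 3 of mCKO and CTR1 alone, were added after seeing the data. Positions and exons came from GENCODE M21 on GRCm38, and promoters from RefSeq on GRCm38.p6, which held 6 of the 7 genes.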

Additional observations from a re-analysis of the deposited data

Results flagged for a closer look

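Of the 7 genes, 3 differed between the models by a test of the difference itself, taken as the mCKO change minus the iCKO change in 1 fit of 12 libraries. Scn4a had a difference of 1.66 ± 0.41 on the log2 scale (adjusted p = 0.015, edgeR), from -0.64 in mCKO beside -2.26 in iCKO. Scn4b had a difference of 1.95 ± 0.35 (adjusted p = 0.003), from -0.57 in mCKO beside -2.49 in iCKO. Hcn2 had a difference of 1.42 ± 0.29 (adjusted p = 0.0053), from 0.66 in mCKO beside -0.73 in iCKO. The difference was positive for the 3 genes under all 26 alternatives, with ranges of 1.28 to 1.85 for Scn4a, 1.63 to 2.24 for Scn4b and 1.02 to 1.69 for Hcn2.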

How the results depend on the processing

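In mCKO, where none of the 7 genes was called without the block, the count was 2 with the replicate block (Scn4a lower, Hcn2 higher), 3 with the block and library totals, 1 with DESeq2, 4 with DESeq2 and the block, 2 with limma-voom and the block, 2 without both groups' replicate 3 and no block (Gjc1, Hcn2), and 3, 4 and 2 with the block without replicate 1, 2 and 3. In iCKO the same-numbered libraries did not deviate together (r = 0.0583, -0.0896 and -0.1614), and the replicate block left 3 of the 7 called there (3055 genes higher and 2436 lower in all) and 3 in the difference between models. Over all genes, mCKO calls numbered 0 without the block, 978 higher and 861 lower with it, 1581 and 474 with the block and library totals, 501 and 554 with DESeq2 and the block, 995 and 895 with limma-voom and the block, 514 and 526 without both groups' replicate 3, 176 and 134 with DESeq2, and 3 and 1 with no filter. With library totals 3 were called in iCKO, among them Gjc1 higher and Hcn2 not. The iCKO count was 2 to 4 when single libraries were left out. For those fits, and for the mCKO fits with the block without replicate 1, 2 or 3, calls over all genes are not given here. Their counts of the 7 genes therefore cannot be set against a share of all genes.

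Library totals in place of TMM moved the median log2 fold change of all genes by 0.08 in mCKO, 0.21 in iCKO and -0.17 in the difference; with them Gja1 in mCKO turned to 0.03, and to 0.02 with the block. Without mCKO replicate 3, CTR1 replicate 1 or CTR1 replicate 2, Gja1 in mCKO turned to 0.13, 0.01 and 0.08 and Gja5 to -0.38, -0.18 and -0.12. With the block and without replicate 2, Gja1 turned to -0.18 in iCKO and to 0.16 in the difference. Gja5 in the difference turned to 0.06 (without mCKO replicate 1), 0.28 (without CTR1 replicate 3) and 0.0 (block, without replicate 3), and Gjc1 to 0.01 (without mCKO replicate 3). Hcn4 in the difference turned to -0.22 without mCKO replicate 2, -0.01 without iCKO replicate 3, -0.02 without CTR2 replicate 1, -0.06 without both groups' replicate 3, and -0.19 with the block without replicate 3. None of these values was called. With single libraries left out the extremes were -0.21 and 0.13 for Gja1 and -0.38 and 0.55 for Gja5 in mCKO, and, in the difference, -0.58 and 0.28 for Gja5, -0.30 and 0.01 for Gjc1 and -0.22 and 0.43 for Hcn4. The Scn4a difference was still called without CTR2 replicate 1, where it was nearest the threshold (1.46, adjusted p = 0.0496, edgeR).

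Leaving out single libraries turned the Gja5 to Gja1 log2 ratio difference in mCKO to -0.43, -0.19 and -0.14 (highest 0.70) and in iCKO to 0.21 and 0.22 (lowest -0.51), the Hcn4 to Hcn2 difference in iCKO to -0.29 and -0.04 (highest 0.59), and the Scn4a to Scn4b difference in mCKO to 0.23 and 0.24 and in iCKO to -0.05 (highest 0.39). The Hcn4 to Hcn2 difference in mCKO stayed between -1.38 and -0.95, and was -1.14 when libraries were paired by number, where the smallest sign-flip p is 0.25. The cause of these changes was not tested.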
